A study of Mus musculus with 22 samples.

Results

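*Slc17a7*, *Tbr1*, *Cux2*, *Rorb*, *Fezf2*, *Foxp2*, *Etv1*, *Neurod6* and *Crym* are genes used to mark the excitatory projection neurons of the cerebral cortex and their layers. These 9 genes were taken as a list by Ensembl identifier, by a rule that names the genes and uses no measured value, out of 39179 gene identifiers with counts in each of 22 RNA-seq libraries. The list was still chosen with earlier results of these data known. Projection neurons release glutamate and send axons out of the cortex or to other cortical areas, and those born together settle in the same layer and tend to share targets. Upper-layer neurons mostly connect cortical areas, layer 5 neurons reach subcortical targets including the striatum, and layer 6 neurons reach the thalamus. The striatum, by contrast, is built mainly of GABAergic projection neurons, and its cortical input arrives as axons whose cell bodies lie elsewhere.

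The libraries came from wild-type (WT) mice and cells and from *Phf8* knockout (KO) ones, of mixed B6x129SvJ background. *Phf8* is X-linked and encodes a histone demethylase. Cre had deleted part of its catalytic domain in ESC clones, from which the KO mice were derived, so the allele is a germline deletion present in every cell. Prefrontal cortex (PFC) and ventral striatum (STR) were taken from adult mice aged 2 months, with 3 WT and 3 KO libraries per region. Neural progenitor cells (NPCs), 3 WT and 3 KO libraries, were monolayer cultures from E16.5 embryos, and embryonic stem cells (ESCs), 2 WT and 2 KO libraries, were derived from blastocyst outgrowths. The labels do not say whether libraries of a group came from separate animals or cultures, and p-values then measure only the spread between these libraries.

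Total counts on genes ranged from 5898286 to 15539811 per library, with the 6 PFC libraries between 5898286 and 10148073. Levels are given as CPM, which scales counts by library total and TMM factor, for comparing libraries, and as RPKM, which further divides by the length of the gene's exons, for comparing genes. *Phf8* itself was at 13.4 to 22.2 CPM in the KO and 38.4 to 70.3 CPM in the WT libraries, so genotype labels and *Phf8* levels matched in all 22. The tissue labels also matched their markers. Summed over 12 genes of striatal projection neurons, the STR libraries held 2002 to 2703 CPM and the PFC libraries 394 to 461 CPM. Neural progenitor markers summed to 4799 to 6402 CPM in NPCs and 1293 to 2475 CPM in ESCs. Pluripotency markers summed to 3967 to 4957 CPM in ESCs and 4.54 to 6.36 CPM in NPCs. The NPC libraries also held 3410 to 7468 CPM of astrocyte markers and 222 to 3251 CPM of oligodendrocyte markers, so they were not uniform. The 9 cortical genes summed to 1039 to 1287 CPM in PFC, 398 to 846 CPM in STR, 177 to 212 CPM in NPCs and 25.4 to 32.1 CPM in ESCs. One library stood apart among the cortical genes, the KO STR replicate 1, which held the 398 CPM.

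The stretches before the start sites of *Slc17a7*, *Neurod6* and *Rorb* are shown because these genes differed across the tissues: *Slc17a7* and *Neurod6* were high in PFC and nearly silent in NPCs, and *Rorb* was the most abundant of the list in NPCs. NeuroD and related basic helix-loop-helix factors bind the E-box, CANNTG, a motif that reads the same on both strands. Each sequence is the 250 bases upstream of a RefSeq start site in GRCm38.p6, read 5′ to 3′ on the gene's strand, with CANNTG matches in capitals. *Slc17a7* is from chr7:45163671-45163920 (plus strand), *Neurod6* from chr6:55681264-55681513 (minus strand) and the first *Rorb* start from chr19:19111197-19111446 (minus strand).
Slc17a7: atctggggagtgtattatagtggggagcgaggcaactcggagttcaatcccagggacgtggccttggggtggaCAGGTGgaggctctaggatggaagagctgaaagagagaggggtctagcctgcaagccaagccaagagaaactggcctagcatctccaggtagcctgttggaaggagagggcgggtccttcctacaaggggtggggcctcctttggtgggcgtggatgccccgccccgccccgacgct
Neurod6: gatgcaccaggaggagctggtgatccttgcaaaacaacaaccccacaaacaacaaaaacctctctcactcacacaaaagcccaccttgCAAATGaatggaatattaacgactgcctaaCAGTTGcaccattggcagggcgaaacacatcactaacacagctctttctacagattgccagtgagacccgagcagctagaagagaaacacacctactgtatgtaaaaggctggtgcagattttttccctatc
Rorb: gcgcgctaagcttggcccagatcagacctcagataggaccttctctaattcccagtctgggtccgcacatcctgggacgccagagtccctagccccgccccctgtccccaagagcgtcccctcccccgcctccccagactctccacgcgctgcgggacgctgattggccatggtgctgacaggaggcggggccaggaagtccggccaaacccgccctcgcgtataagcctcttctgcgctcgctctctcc
The *Slc17a7* window held 1 match, the *Neurod6* window 2 and this *Rorb* window 0, while the window of a second *Rorb* start site held 2. Of 32851 such windows in the RefSeq table, 66.2% held at least 1 CANNTG, so matches are common. The more specific form CAGATG (searched on both strands), which is contained in CANNTG, was in 14.4% of all windows and in none of those shown. RefSeq start sites were found for 7 of the 9 genes, all but *Foxp2* and *Crym*. A match describes letters in a window and says nothing of binding.

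In GRCm38, *Slc17a7* (ENSMUSG00000070570) lies at chr7:45163949-45176142 and *Crym* (ENSMUSG00000030905) at chr7:120186380-120202111. *Neurod6* (ENSMUSG00000037984) is at chr6:55677822-55681263 and *Foxp2* (ENSMUSG00000029563) at chr6:14901349-15441977. *Tbr1* (ENSMUSG00000035033) is at chr2:61802930-61814114, *Cux2* (ENSMUSG00000042589) at chr5:121856366-122050102 and *Etv1* (ENSMUSG00000004151) at chr12:38779380-38870484. *Fezf2* (ENSMUSG00000021743) is at chr14:12342094-12348189 and *Rorb* (ENSMUSG00000036192) at chr19:18930605-19111196. Counts are over exons of each gene, and none of the 9 shared an exon base with another annotated gene.

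In WT PFC the 9 genes spanned a wide range of RPKM. *Slc17a7*, the vesicular glutamate transporter of cortical neurons, led at 80.1 ± 15.6 RPKM (SD, n = 3). *Neurod6*, a transcription factor of postmitotic excitatory neurons, followed at 53.1 ± 7.13 RPKM and *Tbr1*, a T-box factor needed for deep-layer identity, at 34.2 ± 2.75 RPKM. The ranges of these 3 genes did not overlap. *Fezf2*, which specifies subcerebral layer 5 neurons, was at 26.7 ± 3.75 RPKM and *Crym*, a thyroid hormone-binding protein found in deep-layer neurons, at 24.2 ± 4.36 RPKM, and their ranges overlapped. *Cux2*, a homeobox factor of upper-layer neurons, was at 11.6 ± 3.14 RPKM, *Etv1*, an ETS factor of layer 5, at 5.65 ± 0.0984 RPKM, *Rorb*, the nuclear receptor that marks layer 4, at 4.18 ± 0.174 RPKM and *Foxp2*, a forkhead factor of layer 6, at 1.504 ± 0.236 RPKM, each with a range apart from its neighbours. The order of the 9 means was the same in KO PFC.

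The order was different in the other tissues. In WT STR *Slc17a7* (52.9 ± 9.71 RPKM) and *Crym* (42.6 ± 4.25 RPKM) overlapped at the top, *Tbr1* (13.4 ± 3.25 RPKM) and *Neurod6* (12.2 ± 5.63 RPKM) overlapped below them, and *Etv1* was lowest at 2.60 ± 0.278 RPKM. In WT NPCs *Rorb* (7.78 ± 0.997 RPKM), *Etv1* (6.62 ± 0.323 RPKM) and *Cux2* (1.46 ± 0.663 RPKM) were the top 3, with ranges apart, and the other 6 genes had means of at most 0.159 RPKM. In ESCs no member exceeded 1.26 RPKM in any WT library.

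**Figure D1:**
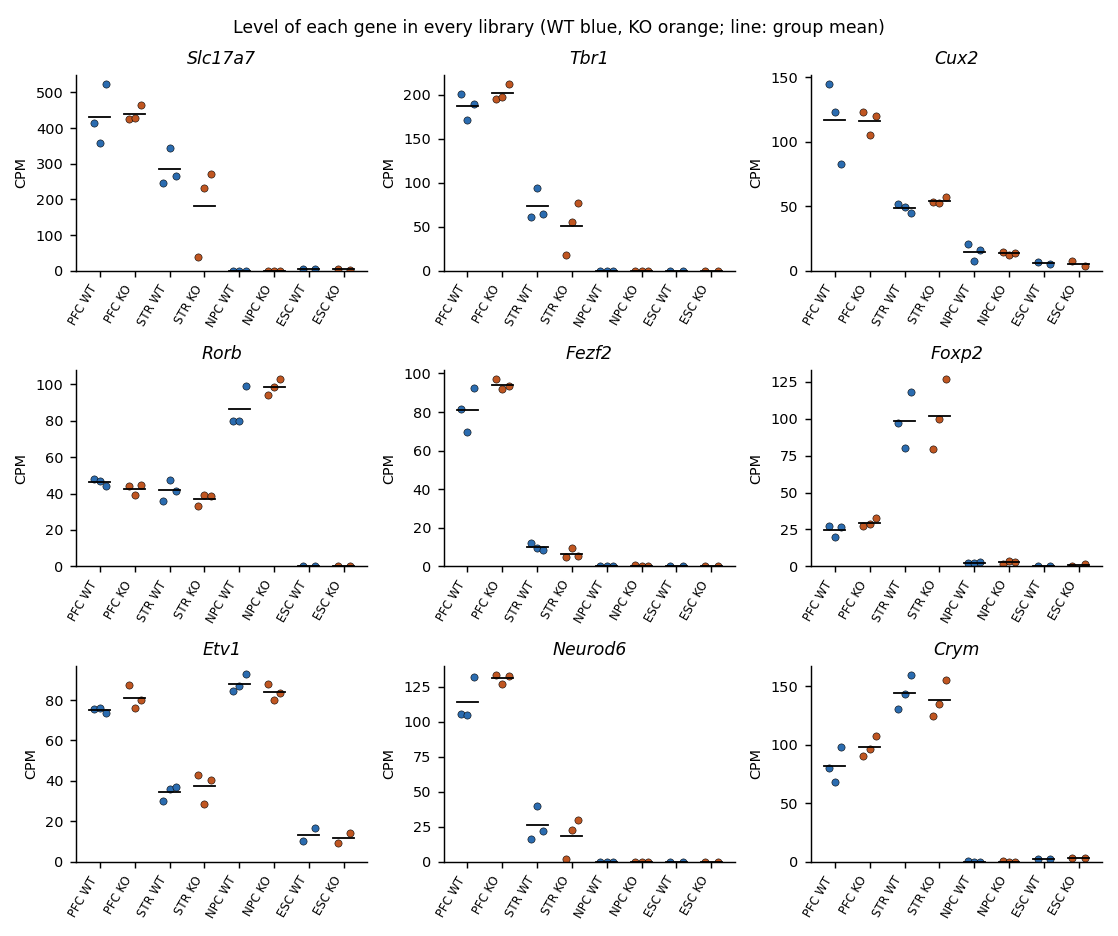
Level of each of the 9 genes in all 22 libraries, in TMM-scaled CPM on a linear axis from 0, with 1 point per library (WT blue, KO orange), grouped by tissue and genotype, and a line at each group mean. *Slc17a7*, *Tbr1*, *Neurod6*, *Fezf2* and *Crym* fall to near 0 in NPCs, while *Rorb* and *Etv1* in NPCs reach or pass their PFC levels.

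The comparison of PFC with STR asks which of these genes separate cortical tissue from its neighbour. In WT and in KO mice 7 of the 9 genes passed an FDR of 0.05, 5 higher in PFC (*Fezf2*, *Neurod6*, *Tbr1*, *Cux2* and *Etv1*) and 2 lower (*Foxp2* and *Crym*). Of all 16028 genes tested, 26.1% passed in WT, 13.5% higher in PFC and 12.6% lower, and 28.2% in KO, 14.2% higher and 13.9% lower. The median log2 fold change of the 9 genes was 1.10 in WT and 1.10 in KO, where the medians of all genes were -0.01 and -0.02. The share of all genes whose PFC and STR libraries do not overlap was not counted. Such separation is given below only as a description. Each test is the quasi-likelihood test of edgeR, each adjusted p is by Benjamini-Hochberg over all genes tested, and each SE is the one implied by the test. These tests did not pair libraries by replicate number. With that pairing, 5 of the 9 genes passed in WT and 7 in KO. Over all genes, 5213 passed in WT and 5537 in KO with it, against 4183 and 4516 without it.

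*Fezf2* differed most. Its WT level was 81.5, 69.8 and 92.6 CPM in PFC and 12.2, 9.75 and 8.64 CPM in STR. Its KO level was 96.9, 92.0 and 93.7 CPM in PFC and 5.10, 9.39 and 5.44 CPM in STR. Every PFC library was thus far above every STR library. The log2 fold change was 2.95 (SE 0.17, adjusted p = 1.74e-08) in WT and 3.79 (SE 0.18, adjusted p = 2.02e-09) in KO mice.

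*Neurod6* and *Tbr1* were higher in PFC too, with more spread in STR. *Neurod6* was at 106, 105 and 132 CPM in WT PFC and 16.4, 39.7 and 22.2 CPM in WT STR. In KO mice it was at 133, 127 and 133 CPM in PFC and 2.11, 23.1 and 29.8 CPM in STR. The log2 fold changes were 2.11 (SE 0.52, adjusted p = 0.0136) in WT and 2.84 (SE 0.54, adjusted p = 0.00308) in KO mice. *Tbr1*, also a gene of postmitotic cortical neurons, was at 202, 172 and 189.7 CPM in WT PFC and 61.4, 94.0 and 65.2 CPM in WT STR. In KO mice it was at 195, 198 and 213 CPM in PFC and 18.4, 55.8 and 77.5 CPM in STR. The *Tbr1* log2 fold changes were 1.33 (SE 0.36, adjusted p = 0.0212) and 1.99 (SE 0.37, adjusted p = 0.00258). The groups of both genes did not overlap in either genotype. WT and KO values come from the same fit over the 4 groups, so the spread in KO STR also enters the WT SEs. With the replicate number as a block, by which PFC and STR libraries deviated together, the WT adjusted p of *Neurod6* was 0.0637 and of *Tbr1* 0.0642, and the WT count fell from 7 to 5 genes. The log2 fold changes in that fit were 2.14 and 1.34, no smaller than without the block. The WT calls were also lost when some libraries were left out. Without WT STR replicate 1, *Tbr1* was at 1.22 (adjusted p = 0.0944) and *Neurod6* at 1.86 (adjusted p = 0.0686). Without WT STR replicate 3 they were at 1.26 (adjusted p = 0.0879) and 2.02 (adjusted p = 0.0691), and without WT PFC replicate 1 *Tbr1* was at 1.26 (adjusted p = 0.0633).

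*Cux2* and *Etv1* were higher in PFC by about the median of the list. *Cux2* was at 145, 123 and 82.4 CPM in WT PFC and 51.8, 49.8 and 44.9 CPM in WT STR, and at 123, 106 and 119.8 against 53.0, 52.2 and 57.5 CPM in KO mice. Its log2 fold changes were 1.24 (SE 0.15, adjusted p = 3.31e-05) and 1.08 (SE 0.15, adjusted p = 9.8e-05). *Etv1* was at 75.5, 76.2 and 73.7 CPM in WT PFC, the tightest WT PFC group of the list, and at 30.3, 36.2 and 37.1 CPM in WT STR. In KO mice it was at 87.5, 75.9 and 79.8 against 43.0, 28.6 and 40.6 CPM. Its log2 fold change was 1.10 (SE 0.12) in each genotype, with adjusted p-values of 9.46e-06 and 8.41e-06.

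*Slc17a7* did not pass although every PFC library was above every STR library. It was at 413, 359 and 524 CPM in WT PFC and 247, 345 and 264 CPM in WT STR, so the WT STR libraries held 56.6 to 79.1% of the mean over the PFC libraries. In KO mice it was at 425, 429 and 464 CPM in PFC and 39.0, 233 and 269.9 CPM in STR. The log2 fold changes were 0.57 (SE 0.50, adjusted p = 0.462) and 1.27 (SE 0.51, adjusted p = 0.0932). Both come from the same fit over the 4 groups, so the spread of KO STR replicate 1 also enters the WT SE. Without the KO STR replicate 1, the KO value was 0.78 with an adjusted p of 0.00261, and 6 genes rather than 5 passed as higher in PFC. The WT value without that library is not given, and its part in the missing WT call was not tested. In the 10 alternatives run for WT, *Slc17a7* passed in 0.

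*Rorb* did not pass in either genotype. It was at 48.0, 46.6 and 44.2 CPM in WT PFC and 36.0, 47.6 and 41.5 CPM in WT STR, and at 44.2, 39.0 and 44.4 against 33.2, 39.3 and 38.6 CPM in KO mice. The groups overlapped in both genotypes, and the log2 fold changes were 0.13 (SE 0.10, adjusted p = 0.414) and 0.18 (SE 0.11, adjusted p = 0.236).

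*Foxp2* and *Crym* ran the other way. Both are also known from striatal neurons. *Foxp2* was at 27.2, 20.2 and 26.4 CPM in WT PFC and 97.0, 80.4 and 118 CPM in WT STR, and at 27.0, 28.9 and 32.4 against 79.6, 99.6 and 127 CPM in KO mice. No PFC library reached the lowest STR library, and the log2 fold changes were -2.04 (SE 0.18, adjusted p = 1.64e-06) and -1.81 (SE 0.18, adjusted p = 4.07e-06). *Crym* was at 79.8, 68.4 and 97.8 CPM in WT PFC and 131, 143 and 159.5 CPM in WT STR, and at 90.7, 96.0 and 108 against 124, 135 and 155 CPM in KO mice. Its log2 fold changes were -0.85 (SE 0.12, adjusted p = 0.000104) and -0.51 (SE 0.12, adjusted p = 0.00513). In these bulk samples, fewer cells of a type and less RNA per cell cannot be told apart.

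**Figure D2:**
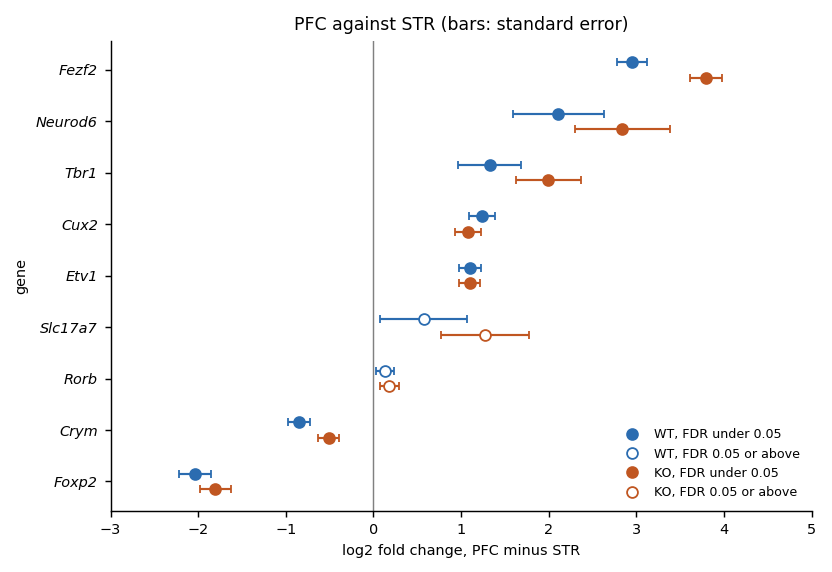
Log2 fold change of PFC against STR for each of the 9 genes in WT and in KO mice, with bars for the SE of the quasi-likelihood test, 0 marked and filled points for an FDR under 0.05. *Fezf2* lies furthest right (2.95 in WT, 3.79 in KO), *Rorb* sits at 0.13 and 0.18, and *Foxp2* lies furthest left (-2.04 and -1.81).

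The STR levels depended on 1 library. The KO STR replicate 1 was below all 5 other STR libraries for 7 of the 9 genes, as it was for 22.4% of all genes tested in STR. *Slc17a7* was at 39.0 CPM there and 233 to 345 CPM in the other 5. *Tbr1* was at 18.4 CPM against 55.8 to 94.0 CPM, and *Neurod6* at 2.11 CPM against 16.4 to 39.7 CPM. The remaining members moved less. *Fezf2* was at 5.10 CPM, next to 5.44 CPM in KO replicate 3, *Rorb*, *Foxp2* and *Crym* were just under the other 5, *Cux2* (53.0 CPM) was within their range, and *Etv1* (43.0 CPM) was above it. As a share of the PFC mean, *Slc17a7* was 8.96% in this library and 53.4 to 79.1% in the other 5, and *Neurod6* was 1.72% and 13.4 to 32.4%.

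Markers of other cells moved with these values. Hypothalamic markers summed to 146 CPM in the KO STR replicate 1 and 9.52 to 32.2 CPM in the other 5. The 7 genes of that list include *Oxt* (39.4 CPM), *Avp* (62.4 CPM), *Otp* (17.8 CPM) and *Sim1*, which was at 5.33 CPM there and at 0 in the other 5. In KO replicate 1, striatal projection neuron markers summed to 2002 CPM against 2311 to 2703 CPM in the other 5. Olfactory bulb markers summed to 165 CPM against 85.5 to 132 CPM, and choroid plexus markers to 87.4 CPM against 65.3 to 78.9 CPM. The striatal, olfactory bulb and choroid plexus sums do not hold for each gene. Of the striatal list, *Six3* (78.2 CPM) was above the other 5 and *Isl1* (33.6 CPM) was within their range. Of the olfactory bulb list, *Calb2* (98.0 CPM), *Th* (28.6 CPM) and *Eomes* (1.55 CPM) were above the other 5. *Cdhr1* (33.3 CPM) was within their range and *Doc2g* (3.33 CPM) below it. *Ttr*, *Kl* and *Clic6* of the choroid plexus list were each within the range of the other 5. Oligodendrocyte markers (1847 CPM against 1459 to 1821 CPM) and microglia markers (336 CPM against 304 to 335 CPM) were just above the other 5. Of the 12 other pan-glutamatergic genes of the cortex 11 were lowest in this library, but *Slc17a6*, the glutamate transporter of thalamic and hypothalamic neurons, was at 202% of its PFC mean there and 43.9 to 87.4% in the other 5. The other layer lists were lowest in KO replicate 1 less often. This held for 2 of 15 upper-layer, 3 of 14 layer 5 and 7 of 14 layer 6 genes. The part of the markers of other cells in the result was not tested.

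**Figure D3:**
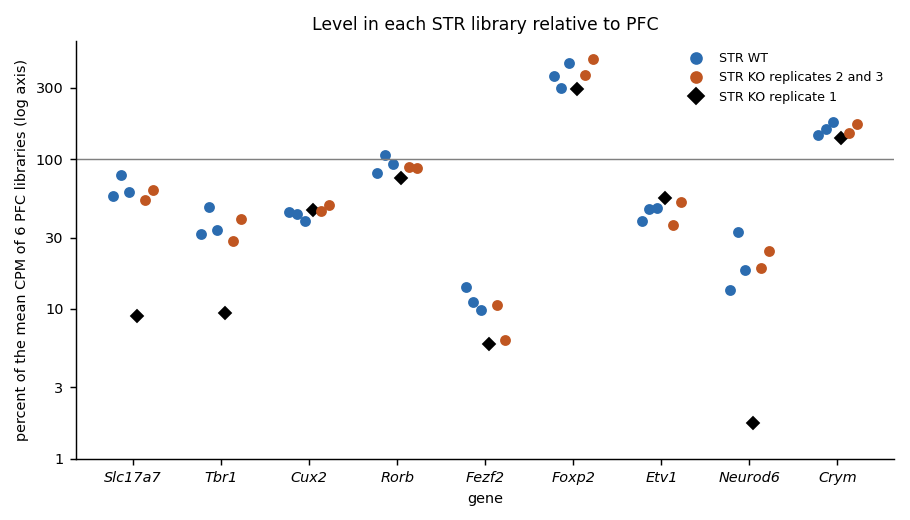
Level of each gene in the 6 STR libraries as a percentage of its mean over the 6 PFC libraries, on a log axis, 1 point per library, with KO replicate 1 as a diamond. *Slc17a7* (8.96%), *Neurod6* (1.72%) and *Tbr1* (9.45%) of KO replicate 1 lie apart from the other 5 libraries.

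The genes of the 4 other layer lists gave a wider view of the same comparison. Of 55 listed genes, 54 could be tested in PFC against STR, and 29 were higher and 10 lower in WT mice (30 and 12 in KO). Of the 12 other pan-glutamatergic genes, 9 were higher and 0 lower in WT, with a median log2 fold change of 1.24. *Neurod1*, a transcription factor of excitatory neurons, was at 2.37 (SE 0.29). At the low end *Nrgn* was at 0.51 (SE 0.12) and *Camk2a*, a kinase that striatal neurons also express, at 0.26 (SE 0.12) did not pass.

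Lists of single layers were less uniform than the pan-glutamatergic list. Upper-layer genes split into 5 higher and 4 lower of 15, with a median of 0.18, from *Rspo1* at 1.31 (SE 0.19) and *Lamp5* at 0.89 (SE 0.07) to *Mdga1* at -1.90 (SE 0.14) and *Otof* at -2.14 (SE 0.23). Layer 5 genes were 9 higher and 2 lower of 13, with a median of 0.76. *Npr3* (2.39, SE 0.27) and *Deptor* (1.77, SE 0.10) were highest, and *Htr2c* (-1.87, SE 0.16) and *Bcl11b* (-1.24, SE 0.10), a factor shared by layer 5 and striatal projection neurons, were lowest. Layer 6 genes were 6 higher and 4 lower of 14, with a median of 0.50, from *Zfpm2* (2.51, SE 0.15) and *Sox5* (0.85, SE 0.17) to *Nxph4* (-1.34, SE 0.28) and *Syt6* (-1.57, SE 0.15).

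**Figure D4:**
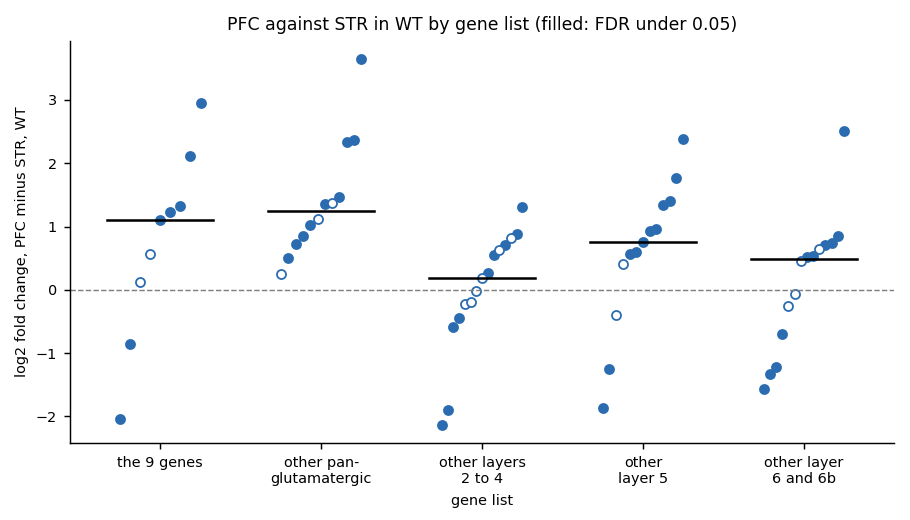
Log2 fold change of PFC against STR in WT mice for the genes of the 4 layer lists and the 9 genes, 1 point per gene (filled where the FDR is under 0.05), with a line at the median of each list. The pan-glutamatergic genes lie all above 0 (median 1.24), and the upper-layer genes spread to both sides (median 0.18).

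PFC and NPCs were compared within each genotype, where tissue and culture, age and cell type differ together. Alignments left uncounted because they were not unique differed as well, at 33.2 to 34.3% of all entries in the count tables in NPCs and 7.62 to 8.90% in PFC, and their part in the values was not tested. All 9 genes passed in WT, 7 higher in PFC and 2 lower (*Rorb* and *Etv1*), and 8 passed in KO, 7 higher and 1 lower (*Rorb*). Of all 16631 genes tested, 79.7% passed in WT, 41.5% higher in PFC and 38.3% lower, and 80.0% in KO, 41.7% higher and 38.3% lower. Genes near 0 in NPCs enter the test through their PFC level alone, so this count, and any median over the list, says nothing about the list.

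Most of the list was nearly absent from NPCs. *Neurod6* had 1 count in the 3 WT and 1 in the 3 KO NPC libraries, and 2996 and 3408 counts in PFC. Scaled to CPM, its ratio of PFC to NPC was 4080 (95% exact interval 731 to 161000) in WT, an interval of counting error only. *Tbr1* had 2 and 8 counts in WT and KO NPCs, and the ratios were 3400 (941 to 28100) and 920 (466 to 2130). *Slc17a7* had 16 and 19 counts with ratios of 951 (585 to 1660) and 843 (539 to 1400), *Fezf2* had 8 and 12 counts with ratios of 362 and 286, and *Crym* 12 and 11 counts with ratios of 241 and 325. *Foxp2* and *Cux2* were measured in all NPC libraries, at 1.77 to 3.33 CPM and 7.42 to 20.6 CPM, and were 9.14 times and 8.04 times higher in WT PFC.

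*Rorb* and *Etv1* were as high in NPCs as in PFC, or higher. *Rorb* was at 79.8, 79.9 and 99.0 CPM in WT and 94.0, 98.3 and 103 CPM in KO NPCs, above all 12 PFC and STR libraries. Its log2 fold change of PFC against NPC was -0.90 in WT and -1.20 in KO. *Etv1* was at 84.5, 86.9 and 92.8 CPM in WT NPCs and 88.0, 80.1 and 83.4 CPM in KO NPCs. Its log2 fold change was -0.23 (adjusted p = 0.0136) in WT and -0.04 (adjusted p = 0.608) in KO, and the WT call was lost with RLE size factors (adjusted p = 0.0889), with DESeq2 (0.102) and without WT NPC replicate 3 (0.0546).

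In ESCs, *Slc17a7* was at 3.45 to 6.34 CPM, *Cux2* at 3.64 to 7.52 CPM, *Etv1* at 9.46 to 16.7 CPM and *Crym* at 2.11 to 3.54 CPM. *Neurod6* had no counts in any of the 4 libraries and *Fezf2* had 1 count in 1 of them. *Tbr1* and *Rorb* were at most 0.301 and 0.354 CPM, and *Foxp2* ranged from 0 to 1.67 CPM.

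The comparison of KO with WT asks whether loss of *Phf8* altered these genes. In PFC, 0 of 9 passed the FDR in edgeR and 0 in DESeq2, and 0 had an unadjusted p under 0.05, while 98 of 15364 genes (0.638%) passed and 1725 had an unadjusted p under 0.05. The KO and WT groups overlapped for each of the 9, where 17.1% of all genes did not overlap. The log2 fold changes ran from -0.14 to 0.26 with a median of 0.10, against -0.02 for all genes, and the smallest adjusted p was 0.455. In detail, *Foxp2* was at 0.26 (SE 0.13), *Crym* at 0.26 (SE 0.12), *Fezf2* at 0.21 (SE 0.10) and *Neurod6* at 0.19 (SE 0.09). *Tbr1* and *Etv1* were at 0.10 (SE 0.08), *Slc17a7* at 0.01 (SE 0.12), *Cux2* at -0.03 (SE 0.17) and *Rorb* at -0.14 (SE 0.09).

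The PFC values carry 2 limits. Without WT PFC replicate 3, *Neurod6* passed at 0.31 (adjusted p = 0.0416). That library had the lowest total of counts in the series, 5898286, the lowest *Cux2* (82.4 CPM) and the highest *Slc17a7* (524 CPM) of the PFC libraries, and a ratio of *Cux2* to *Fezf2* in RPKM of 0.269 against 0.347 to 0.537 in the other 5. Oligodendrocyte markers moved with genotype. Their 8 genes summed to 1478 to 1581 CPM in KO and 1837 to 2399 CPM in WT PFC, and 5 of the 8 were called lower in KO, with a median log2 fold change of -0.59. Their part in the members' values was not tested.

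In STR, 0 of 9 passed in edgeR and 0 in DESeq2, while 0 of 15476 genes (0.0%) passed in edgeR and 60 in DESeq2, and 1346 had an unadjusted p under 0.05 in edgeR. *Fezf2* was the 1 member with an unadjusted p under 0.05, at -0.60 (SE 0.26), with an adjusted p of 0.563. *Cux2* groups did not overlap (51.8, 49.8 and 44.9 CPM in WT and 53.0, 52.2 and 57.5 CPM in KO), as for 13.2% of all genes, and its log2 fold change was 0.16 (SE 0.08, adjusted p = 0.653). *Slc17a7* at -0.66 (SE 0.61), *Tbr1* at -0.54 (SE 0.46) and *Neurod6* at -0.51 (SE 0.75) had wide errors. Without the KO replicate 1 these values were -0.18, -0.14 and 0.02, and the median of the 9 went from -0.16 to 0.00. The deleted gene itself did not pass in STR, with *Phf8* at -1.37 (adjusted p = 0.0956) and groups that did not overlap, so a count of 0 there does not show that the 9 genes were unaltered.

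**Figure D5:**
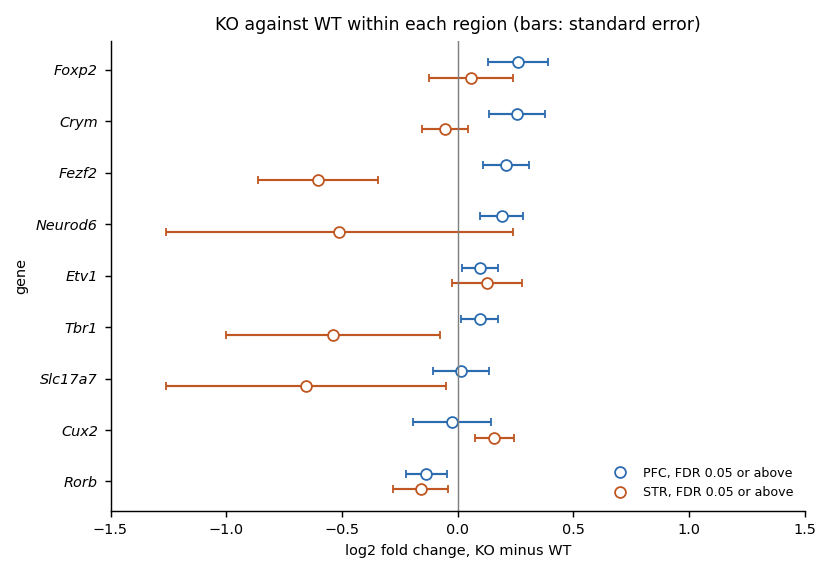
Log2 fold change of KO against WT for the 9 genes in PFC and in STR, with bars for the SE of the quasi-likelihood test and 0 marked. All points are open, as none had an FDR under 0.05. The PFC values lie between -0.14 and 0.26, and the STR values of *Slc17a7*, *Tbr1* and *Neurod6* have the widest bars (SE 0.61, 0.46 and 0.75).

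Whether the KO effect differed between PFC and STR was tested as an interaction. None of the 9 genes passed in edgeR or DESeq2, while 1 of 16028 genes (0.00624%) passed in edgeR and 19 in DESeq2. *Fezf2* had the smallest adjusted p of the list, 0.62, with a difference in log2 fold change of 0.84 (SE 0.26). It was the 1 member with an unadjusted p under 0.05, as were 1027 of all genes. In NPCs 4 genes could be tested (*Cux2*, *Rorb*, *Foxp2* and *Etv1*) and none passed in edgeR or DESeq2, nor had an unadjusted p under 0.05, while 1 of 14351 genes (0.00697%) passed and 435 had an unadjusted p under 0.05. The 1 gene that passed was *Phf8* itself, at -1.415 (adjusted p = 0.0285). The values of the 4 members ran from -0.09 to 0.19. In ESCs 4 could be tested (*Slc17a7*, *Cux2*, *Etv1* and *Crym*), none passed in either tool or had an unadjusted p under 0.05, and 0.0% of 15080 genes passed in edgeR (3 in DESeq2, and 171 with an unadjusted p under 0.05). *Phf8* was at -1.79 there with an adjusted p of 1.0, though its groups did not overlap. As in STR, this test of 2 against 2 libraries thus did not call the deleted gene. The ESC test also did not pair libraries by replicate number, by which they correlated at 0.876. With the replicate block, 513 of all genes passed rather than 0, and 0 of the members. *Crym* was at 2.11 and 2.40 CPM in WT and 3.54 and 2.96 CPM in KO ESCs, from only 21 to 40 counts per library. Its log2 fold change was 0.52 (SE 0.28).

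Among the 54 tested genes of the other layer lists, 1 passed in KO against WT in PFC. *Cdh13*, a cadherin of the upper-layer list, was at 76.6, 74.8 and 92.6 CPM in WT and 119.1, 105 and 131 CPM in KO PFC. Its log2 fold change was 0.53 (SE 0.10, adjusted p = 0.0463). It passed the threshold in 5 of 10 alternatives, with adjusted p from 0.00014 to 0.305. Of the 6 fits that each left out a PFC library, it passed in 1, the fit without WT replicate 3. In STR it was not called, with 94.5, 111 and 120.5 CPM in WT and 129.7, 101 and 117 CPM in KO. In STR 0 of 54 genes passed, and 0 of 33 in NPCs and 0 of 31 in ESCs.

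The genes whose levels over the 8 groups were most like each member were found by the root mean square difference of log2(RPKM + 0.1) profiles, centred on their mean, among 13899 genes. *Rorb* had the nearest neighbour, *Nwd1* at 0.113, followed by *Kcnip3* and *2510009E07Rik*. *Crym* was nearest to *Rgs14* (0.158), *Etv1* to *Pcdh7* (0.168), *Foxp2* to *Tpbgl* (0.172) and *Cux2* to *Adcy9* (0.209). *Neurod6* was nearest to *Neurod2* (0.267) and then to *Tbr1* (0.431), and *Tbr1* to *Ipcef1* (0.268), *Car10* and *Neurod2*. *Slc17a7* was nearest to *Necab1* (0.295), and *Fezf2* had its nearest neighbour furthest away, *Emx1* at 0.596. Within the list, *Tbr1* and *Neurod6* were the closest pair (0.431) and *Slc17a7* and *Rorb* the farthest (3.99). These are descriptions over 8 group means, which share libraries and depth.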

How the data were processed

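RNA was sequenced from 22 samples. Per the paper's methods, the authors mapped reads to mm10/GRCm38 using STAR, and HTSeq counted those falling on genes of Ensembl release 75. The deposited files hold these raw counts, not normalized. The submitters' processing notes also name CASAVA 1.7. The strand setting of the brain libraries is not given in the sources used here. Rows without a gene (no feature, 5.35 to 15.4% of a library's table total) were left out. HTSeq's alignments that were not unique, which it does not count, came to 7.62 to 8.90% of that total in PFC, 8.01 to 8.61% in STR, 33.2 to 34.3% in NPCs and 43.2 to 45.5% in ESCs. Groups and replicate numbers came from the labels.

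Gene names, positions and exon lengths came from GENCODE M21, which matched 37693 of 39179 identifiers with 99.709% of counts. CPM, RPKM and fits were computed here with R 4.3.3 and edgeR 4.0.16 by the quasi-likelihood test with TMM factors (0.828 to 1.19) and edgeR's low-count filter, over all genes tested, with an FDR threshold of 0.05. SEs were derived from the F statistic and log2 fold change. KO against WT was fitted per tissue, and comparisons of PFC with STR or NPC over the 4 groups. Scripts were tested on simulated counts. Replicate libraries differed by more than counting error (chi-square per degree of freedom 1.89 to 40.5). Alternatives were DESeq2 1.42.0, RLE size factors, no filter, the study's added log2 fold change limit, a replicate block and each library left out. Genes named from the other layer lists are those called in KO against WT in PFC or STR and the 2 with the largest and the 2 with the smallest PFC against STR value in WT; 1 gene this rule names is not reported here. The members and lists were chosen with earlier results of these data known.

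The replicate numbers are shared between groups in the labels, and whether they pair libraries was read from the data, by correlating deviations from group means. Same-numbered PFC and STR libraries correlated at 0.186 to 0.392 in WT and 0.143 to 0.189 in KO, and NPC KO and WT at 0.524 to 0.705, so these were read as paired. PFC KO and WT (-0.0320 to 0.0546), STR KO and WT (-0.0215 to 0.133) and PFC and NPC (-0.0387 to 0.0308) were not. ESC KO and WT correlated at 0.876, over 2 libraries per group. The main fits used no pairing, which entered only through the replicate block alternative. In NPCs, 1508 genes had an unadjusted p under 0.05 with the block and 435 in the main fit.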

Additional observations from a re-analysis of the deposited data

How the results depend on the processing

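The calls of the 9 genes were compared under each alternative. Members called kept within 1.5 times the main count everywhere except in KO against WT in PFC, where leaving out 1 library gave 0 to 1. In PFC against NPC in KO, *Etv1* changed sign to 0.034 with RLE size factors and 0.03 with DESeq2, and its value ranged from -0.084 to 0.021 with a library left out. The difference of KO effects for *Etv1* became 0.006 with the replicate block. Leaving out a library in turn moved KO against WT across 0 as follows. In PFC *Slc17a7* ranged from -0.10 to 0.18 and *Cux2* from -0.21 to 0.15, in STR *Foxp2* from -0.12 to 0.20, *Neurod6* from -1.02 to 0.02 and *Crym* from -0.14 to 0.02, in NPCs *Cux2* from -0.40 to 0.22 and *Foxp2* from -0.17 to 0.25, and in ESCs *Cux2* from -0.74 to 0.21 and *Etv1* from -0.57 to 0.23. The interaction ranged from -0.34 to 0.026 for *Cux2*, -0.068 to 0.133 for *Rorb* and -0.179 to 0.098 for *Etv1*. Of the calls in PFC against STR in WT, *Tbr1* was also lost with no filter (1.34, adjusted p = 0.0545) and without 3 single libraries (1.22 to 1.26), and *Neurod6* without 2 (1.86 and 2.02), where the values with all libraries were 1.33 and 2.11. None of the values that changed sign passed the threshold. The cause was not tested.

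The replicate block changed 2 calls, *Tbr1* (1.34, adjusted p = 0.0642) and *Neurod6* (2.14, adjusted p = 0.0637) in PFC against STR in WT, and no other call of the 9. Over all genes, KO against WT in PFC gave 98 calls, 140 with the block, 379 with no filter, 182 with DESeq2 and 2 to 154 with a library left out, and in STR 0, 8, 27 and 60. In ESCs, where the numbers correlate at 0.876 over 2 pairs, it gave 0 and 513 with the block. Levels without TMM factors moved by more than the spread in 27 of 72 group means. The spread between libraries, a biological coefficient of variation of 8.52% for PFC, 11.1% for STR, 21.2% for NPC and 31.4% for ESC libraries, limits what could be detected.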
